A study of Mus musculus with 2 samples.

Results

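Genes of focal adhesions and of actin filament assembly were compared between LM8, a highly metastatic subline of mouse osteosarcoma cells, and Dunn, the parental line, which is labelled non-metastatic. The 47 genes were listed by function, and a gene was represented by the probe sets of the array whose only annotated symbol was that gene. Such probe sets were found for 44 of the 47 genes, 129 probe sets in all, among 18193 genes and 34945 probe sets with a single symbol. Ptk2 and Actr2 were not analysed here, and the probe sets of Arpc1b are shared with another gene.

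Each line was represented by 1 Affymetrix mouse expression array, hybridised with labelled cRNA made from 10 µg of total RNA. LM8 and Dunn cells were both grown, without treatment, in Eagle's minimum essential medium containing antibiotics, L-glutamine, 1% non-essential amino acids and 10% fetal bovine serum. With 1 array per line, a difference between the lines has no replicate check and no p-value, and this small number of arrays sets the precision. The deposited values were linear MAS5 signals, the brightness of a probe set after the array's own background and mismatch correction. The array median, 18.96 in LM8 and 21.06 in Dunn, served as the floor, and a probe set was counted as measured if its signal was above the floor on at least 1 array. This held for 116 probe sets of 42 genes. A gene is given by its brightest measured probe set, as the LM8 signal, the Dunn signal and the log2 ratio of LM8 over Dunn. Signals of different probe sets are not comparable as amounts of RNA, because probes differ in affinity, so only the ratio of the lines is compared between genes. In RNA from whole cultures, fewer cells that express a gene and less RNA per cell cannot be told apart.

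Focal adhesions join integrins, the transmembrane receptors for extracellular matrix, to the actin cytoskeleton. Talin and kindlin bind integrin tails, vinculin and α-actinin tie talin to actin filaments, and paxillin, p130Cas, zyxin and LIM-domain adaptors assemble on this core and pass signals into the cell. Filaments are extended by Ena/VASP proteins and profilin, branched by the Arp2/3 complex, bundled by fascin and plastin, capped or cut by gelsolin and cofilin, and pulled on by non-muscle myosin II. Osteoblasts and the tumours related to them are adherent cells that carry many such adhesions.

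The lines carried the markers of their labelled origin. Of 8 osteoblast markers on the array, 6 were measured, among them Alpl, Col1a1, Col1a2 and the osteoblast transcription factor gene Sp7, which had a signal of 743 in LM8 and 687 in Dunn. Dmp1 and Phex, genes of the later osteocyte stage, lay below both floors. Ibsp, for bone sialoprotein, had 96.6 in LM8 and 239 in Dunn, and Pth1r, for the parathyroid hormone receptor, had 492 in LM8 and 1115 in Dunn, both at least 2-fold lower in LM8. The summed signal of the measured osteoblast markers, most of it from Col1a1 and Col1a2, was 13960 in LM8 and 14490 in Dunn. Of 10 macrophage and leukocyte markers, 8 were measured, with a summed signal of 510.9 in LM8 and 994.6 in Dunn, of which 387 and 716 came from Fcer1g alone, and Ptprc and Itgam lay below both floors. Summed signals of the measured endothelial markers were 95.28 in LM8 and 180.1 in Dunn (2 of 6 measured), those of epithelial markers 65.36 and 93.76 (3 of 6), and those of muscle markers 591.8 and 190.1 (4 of 8), of which the smooth muscle actin gene Acta2 gave 515 in LM8 and 85.7 in Dunn. The part of these markers in the differences below was not tested.

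Most focal adhesion and actin assembly genes had similar signals in both lines. Of the 42 genes measured, Fscn1, Pdlim7 and Vcl (3 genes) had at least 2-fold higher signals in LM8, and Sorbs2, Pdlim1 and Sorbs3 (3 genes) had at least 2-fold lower signals. The remaining 36 lay within 2-fold. The share of 7.14% in each direction is close to that among all 11830 measured genes, 6.51% for higher and 8.84% for lower signals, so the count as such does not set these genes apart. With a signal of at least 100 required on both arrays, a limit chosen after seeing the data, 3 of 36 genes were higher and 1 was lower, against 4.49% and 4.59% of all such genes. The median log2 ratio of the 42 genes was -0.006, against -0.084 for all measured genes, and 21 of the 42 lay above 0. A further 4 genes, Tmsb4x, Arpc5, Tns3 and Src, had log2 ratios between -1 and -0.9, and none had one from 0.9 to under 1. The share of all genes in these bands was not computed. Src and Tns3 each had another probe set above 0. Arpc5 reached -1.004, a 2-fold lower signal, with quantile normalization. With arrays scaled on bacterial control transcripts added at hybridisation, the 4 genes ran from -0.716 to -0.658. Under that scaling Parva, Tns1 and Pfn2 reached 2-fold higher signals in LM8.

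**Figure D1:**
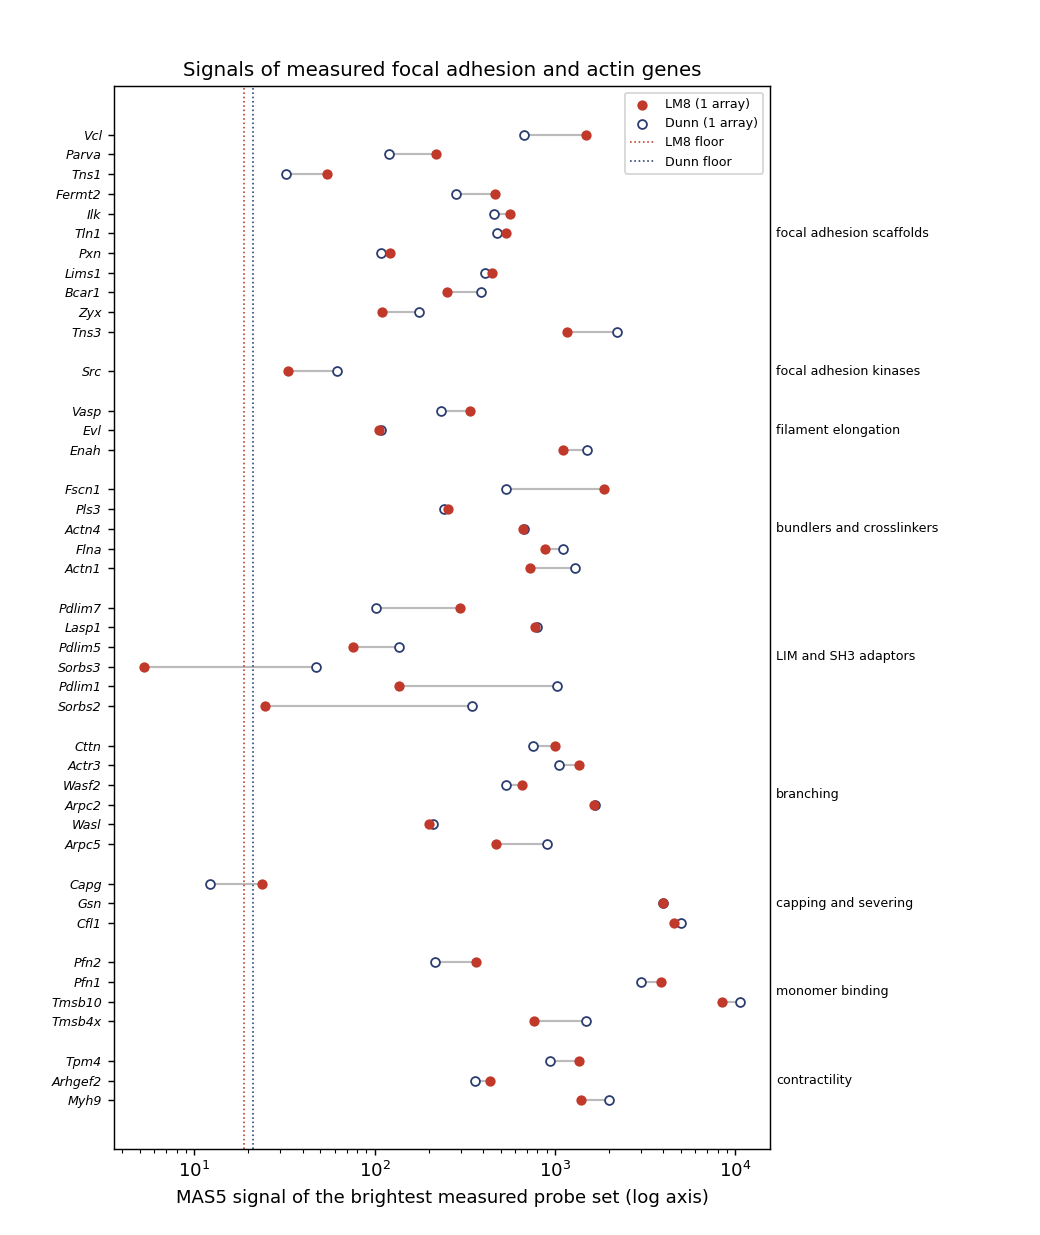
MAS5 signal (log axis) of the brightest measured probe set of each of the 42 measured genes in LM8 (filled) and Dunn (open), 1 array each, grouped by role. Dotted lines mark the array floors of 18.96 (LM8) and 21.06 (Dunn). Most pairs lie close together, and the widest gaps are those of Sorbs2, Pdlim1 and Fscn1 and of Sorbs3, whose LM8 signal is under the floor.

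The spread between probe sets of the same gene was the only measure of error for 1 gene. It is no replicate error, and what gives rise to it was not tested. Of 31 genes with 2 or more measured probe sets, the median SD of the log2 ratio was 0.384, against 0.305 over 5521 genes of the whole array. Probe sets lay on both sides of 0 for 14 of the 31, and for 11 of the 26 genes with 2 or more probe sets above both floors. The 14 include Tln1, whose only value below 0 was set by the Dunn floor. In 14 genes the probe sets were 1 or more apart in log2 ratio. Counted singly, 7 of the 116 measured probe sets had at least 2-fold higher signals in LM8 and 8 had at least 2-fold lower ones, against 6.16% and 8.17% of all 21460 measured probe sets with a single gene symbol.

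**Figure D2:**
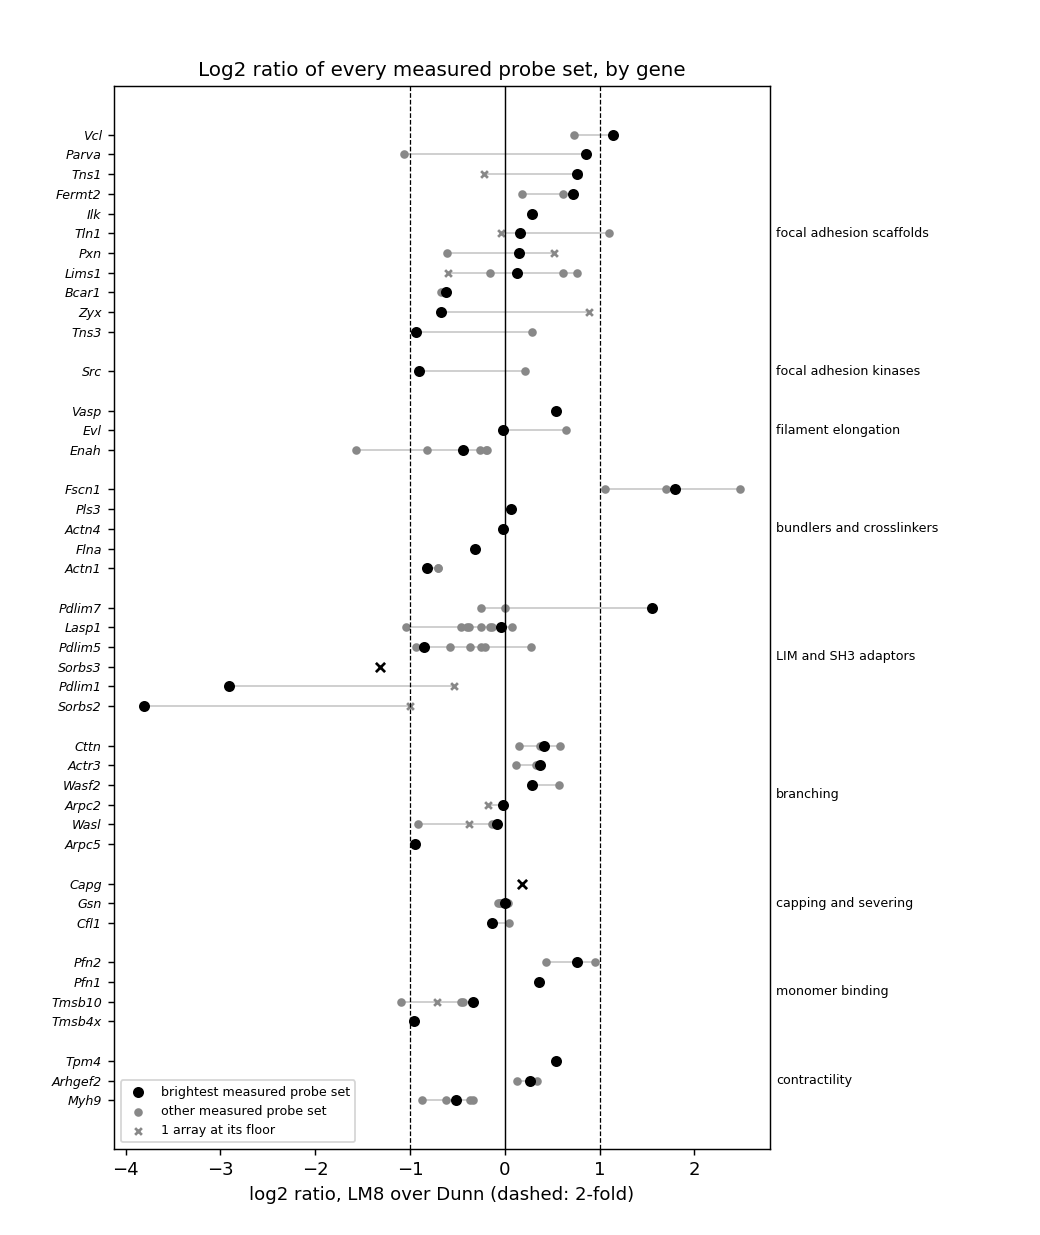
Log2 ratio of LM8 over Dunn for each of the 116 measured probe sets, by gene and role. Large black marks are the brightest probe set of a gene, grey marks the others, and crosses have 1 array at its floor; dashed lines mark 2-fold. All 4 probe sets of Fscn1 lie above the 2-fold line, whereas those of Parva lie on both sides of 0.

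Of the 11 core scaffolds of the adhesion, 8 lay above 0 under each scaling tried, with a median log2 ratio of 0.165. Of all 11830 measured genes, 5285 lay above 0, with a median of -0.084. Several scaffolds, described below, had probe sets on both sides of 0. With probe sets averaged, the log2 ratio of Zyx turned to 0.109 and that of Parva to -0.102. Vcl, which encodes vinculin, the protein that reinforces the link between talin and actin, was the only scaffold 2-fold apart. Its brighter probe set had a signal of 1482 in LM8 and 673 in Dunn, 2.20-fold higher in LM8, and its dimmer one had 237 in LM8 and 142 in Dunn, a log2 ratio of 0.73. Both probe sets were higher in LM8, but only the brighter one passed 2-fold. Fermt2 encodes kindlin-2, an activator of integrins, and had signals of 467 in LM8 and 284 in Dunn, with log2 ratios of 0.18 to 0.72 over its 3 probe sets. Tln1, for talin-1, which opens integrins by binding their tails, had 538 in LM8 and 480 in Dunn. Its other probe sets were dim, and 1 had 49.2 in LM8 and 23.0 in Dunn, a log2 ratio of 1.10. The last had 20.5 in LM8 and 12.9 in Dunn. Its log2 ratio of -0.04 lay below 0 only because Dunn was raised to its floor. All 3 probe sets of Tln1 lay above 0 under the other scalings. The brightest probe set of Tln1 thus showed a smaller ratio than both probe sets of Vcl.

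The promoters of Vcl and Fermt2 were the only ones among the 42 listed genes with a RefSeq promoter entry that held a CArG box, the binding sequence of serum response factor. The windows ran from 250 bases before to 50 bases after the annotated start, and both strands were searched. A CArG box was found for 2 of the 42 genes (4.76%) and for 1.81% of all 27025 genes in the table. The sequence GGAATG, recognised by TEAD factors, was found for 9 of the 42 (21.4%), Vcl included, and for 16.6% of all genes. The AP-1 sequence TGANTCA was found for Zyx and Actn4 (4.76%) and for 8.97% of all genes. Pxn, Ptk2, Parva, Cttn and Sorbs3 had no entry. The 250 bases upstream of both starts are shown because these scaffold genes hold the box. Whether the box has a part in their signals was not tested. The sequences are from RefSeq on GRCm38.p6, Vcl at chr14:20929148-20929397 on the plus strand and Fermt2 at chr14:45530066-45530315 on the minus strand. Capitals mark the CArG box, which begins 227 bases upstream of the start in Vcl and 204 in Fermt2, and, in Vcl, the GGAATG sequence.
Vcl: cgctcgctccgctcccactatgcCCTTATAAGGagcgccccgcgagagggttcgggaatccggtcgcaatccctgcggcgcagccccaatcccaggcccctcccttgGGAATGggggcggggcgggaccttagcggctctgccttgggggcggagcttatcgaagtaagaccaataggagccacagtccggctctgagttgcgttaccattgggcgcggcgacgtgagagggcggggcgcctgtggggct
Fermt2: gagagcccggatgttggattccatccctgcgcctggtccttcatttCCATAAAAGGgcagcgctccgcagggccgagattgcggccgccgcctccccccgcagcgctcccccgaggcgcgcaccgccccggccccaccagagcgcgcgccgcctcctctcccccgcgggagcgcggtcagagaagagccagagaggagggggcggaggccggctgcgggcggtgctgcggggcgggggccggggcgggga
A match describes these letters in these windows and says nothing about binding in the cells.

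In the complex that integrin-linked kinase forms with its partners, Parva was split between probe sets well above the floor. Ilk itself, the pseudokinase at the centre of the complex, had 563 in LM8 and 462 in Dunn on its 1 probe set. Lims1, which encodes the LIM-domain partner PINCH-1, had 450 in LM8 and 411 in Dunn, and its 5 probe sets ran from -0.60 to 0.77 in log2 ratio. The 3 brighter ones lay above 0. The 2 below 0 were dim, the first with 17.0 in LM8, under the floor, and 28.7 in Dunn. The other had 20.3 in LM8 and 22.7 in Dunn. Parva, for the actin-binding partner α-parvin, had 218 in LM8 and 120 in Dunn on the brighter probe set but 71.0 in LM8 and 148 in Dunn on the dimmer one. With log2 ratios of 0.86 and -1.06, the direction of Parva is not settled by these arrays.

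The remaining scaffolds went both ways. Pxn encodes paxillin, a docking protein for kinases at the adhesion, and had 121 in LM8 and 109 in Dunn on its brightest probe set, with log2 ratios from -0.61 to 0.52 over 3. Bcar1, for p130Cas, which is phosphorylated when stretched, had 252 in LM8 and 388 in Dunn, and its 2 probe sets had similar log2 ratios of -0.62 and -0.68. Zyx encodes zyxin, which gathers on adhesions and stress fibres under tension, and had 111 in LM8 and 177 in Dunn, but its dim probe set, with Dunn at the floor, had a log2 ratio of 0.89. Of these genes, only Bcar1 had a consistent direction over its probe sets.

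The tensin genes, whose products tie integrins to actin in the longer adhesions, differed in direction on their brightest probe sets. Tns1 had 54.6 in LM8 and 32.2 in Dunn, a log2 ratio of 0.76. Its other probe sets had 0.77 with Dunn at its floor and -0.22 with LM8 at its floor. Tns3 had 1163 in LM8 and 2221 in Dunn, a log2 ratio of -0.93, while its other probe set, near the floor with 25.8 in LM8 and 21.2 in Dunn, had 0.28. The gap between the 2 genes, taken on their brightest probe sets, was 1.70 in log2 ratio. Src, the tyrosine kinase that acts with focal adhesion kinase on these scaffolds, was dim in both lines, with 33.1 in LM8 and 61.7 in Dunn, and its second probe set had 25.6 in LM8 and 22.1 in Dunn.

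The LIM and SH3 adaptors, which bind α-actinin, vinculin or filaments at adhesions and stress fibres, held the widest differences. Of 6 genes, 3 were at least 2-fold lower in LM8, 1 was at least 2-fold higher and 2 were within 2-fold, where 8.84% of all measured genes were lower and 6.51% higher. Their median log2 ratio was -1.08, with a range from -3.81 to 1.56. The listed genes were chosen with earlier results of these data known, so these shares are descriptions only. Sorbs2 encodes ArgBP2, an SH3 adaptor of stress fibres, and had 24.7 in LM8 and 346 in Dunn, with the LM8 signal near the floor. Pdlim1 encodes a PDZ and LIM protein that binds α-actinin, and its signal was 137 in LM8 and 1025 in Dunn, 7.51-fold lower in LM8. Another probe set of Pdlim1 had 10.5 in LM8, under the floor, and 27.6 in Dunn, and the remaining one lay below both floors. The lower signal of Pdlim1 therefore rests on 1 bright probe set that was well above the floor in both lines. Sorbs3, for vinexin, a vinculin-binding adaptor, had a signal of 5.28 in LM8, under the floor, and 47.3 in Dunn on its 1 probe set, at least 2.50-fold lower in LM8.

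Pdlim7 went the other way from Pdlim1 on its brightest probe set. This gene encodes enigma, a PDZ and LIM protein known from studies of bone formation, and had 299 in LM8 and 102 in Dunn, 2.94-fold higher in LM8. A second probe set had 145 in LM8 and 172 in Dunn, a log2 ratio of -0.25, and the last had 53.2 in both lines. The higher signal of Pdlim7 was therefore shown by 1 of 3 probe sets. Pdlim5, also a binder of α-actinin, had 76.0 in LM8 and 137 in Dunn, with 7 probe sets from -0.93 to 0.27. Lasp1, a LIM and SH3 protein of filaments and adhesions, had 778 in LM8 and 797 in Dunn. Of its 9 probe sets, the lowest log2 ratio was -1.04 and the highest 0.08, and 8 of the 9 lay below 0, or 5 when the arrays were scaled on bacterial control transcripts added at hybridisation (hybridisation controls).

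Genes of the Ena/VASP family, which hold filament ends open for elongation, did not move together. Vasp had 339 in LM8 and 234 in Dunn, a log2 ratio of 0.54 on its 1 probe set. Evl had 106 in LM8 and 108 in Dunn, and its dimmer probe set a log2 ratio of 0.64. Enah, which encodes Mena, was lower in LM8 on all 6 probe sets, with log2 ratios from -1.57 to -0.18, except that 2 of them lay above 0 with scaling on the hybridisation controls. The brightest of them had 1108 in LM8 and 1500 in Dunn, and the next 273 in LM8 and 811 in Dunn. None of the 3 genes was 2-fold apart on its brightest probe set, and 1 probe set of Enah was.

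Among bundling and crosslinking genes Fscn1 stood alone. It encodes fascin, which packs filaments tightly in filopodia and is known from studies of tumour cell invasion. Its 4 probe sets gave 1862 in LM8 and 536 in Dunn, 277 in LM8 and 133 in Dunn, 254 in LM8 and 78.1 in Dunn, and 195 in LM8 and 34.9 in Dunn. Each was at least 2-fold higher in LM8, with log2 ratios from 1.06 to 2.48 and an SD of 0.58 (4 probe sets). Fscn1 was the only one of the listed genes that was 2-fold higher in LM8 on every measured probe set. The other 4 measured bundlers lay between -0.82 and 0.07, and Flnc was below both floors.

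The α-actinin genes, whose products crosslink filaments and anchor them at adhesions, separated. Actn1 had 728 in LM8 and 1287 in Dunn, and its 3 probe sets lay close together, with log2 ratios from -0.82 to -0.71. Actn4 had 665 in LM8 and 675 in Dunn. Actn1 was thus lower in LM8 on each probe set without reaching 2-fold, while Actn4 had almost the same signal in both lines. Flna, for filamin A, which joins filaments into a loose network, had 886 in LM8 and 1103 in Dunn, and Pls3, for plastin-3, a bundler of parallel filaments, had 256 in LM8 and 244 in Dunn.

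Branching genes were within 2-fold throughout, with a median log2 ratio of 0.138 over 6 genes. Cttn encodes cortactin, which stabilises filament branches, and had 1001 in LM8 and 753 in Dunn, with 4 probe sets from 0.15 to 0.59. Actr3, for an actin-related subunit of the Arp2/3 complex, had 1368 in LM8 and 1058 in Dunn, with 3 probe sets from 0.12 to 0.37. Arpc2, another subunit, had 1647 in LM8 and 1662 in Dunn. Arpc5, also a subunit, was lower, with 472 in LM8 and 910 in Dunn, a log2 ratio of -0.95. Actr3, Arpc2 and Arpc5 did not share 1 ratio, and Arpc5 rests on a single measured probe set. The subunit genes Arpc1a, Arpc4 and Arpc5l, outside the 47 listed, had log2 ratios of -0.302, -0.329 and -0.129. Of the activators of the complex, Wasf2 (WAVE2) had 654 in LM8 and 535 in Dunn, and Wasl (N-WASP) 200 in LM8 and 212 in Dunn. The 4 probe sets of Wasl ran from -0.92 to -0.08, and 2 of them lay above 0 with arrays centred on their medians or scaled on the hybridisation controls.

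Among capping and severing genes Gsn and Cfl1 showed small differences, and the ratio of Capg was limited by the floor. Gsn, for gelsolin, which cuts filaments and caps their ends, had 4000 in LM8 and 3996 in Dunn, and its 5 measured probe sets ran only from -0.07 to 0.04. Cfl1, for cofilin-1, which severs aged filaments, had 4566 in LM8 and 4999 in Dunn. Capg, a capping protein gene, was barely above the floor in LM8 with 23.9 and under it in Dunn with 12.2. Its log2 ratio of 0.182 is therefore a lower bound, and it was 0.965 with neither floor nor filter. The agreement among the probe sets of Gsn was the closest of any of the listed genes with more than 2 of them.

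Genes of monomer-binding proteins paired off by family. Pfn1 and Pfn2 encode profilins, which feed actin monomers to growing ends. Pfn1 had 3860 in LM8 and 3001 in Dunn, and Pfn2 had 365 in LM8 and 216 in Dunn, with 3 probe sets from 0.43 to 0.95. Both profilin genes were higher in LM8 on every probe set. Tmsb4x and Tmsb10 encode β-thymosins, small proteins that hold monomers in reserve. Tmsb4x had 766 in LM8 and 1491 in Dunn, a log2 ratio of -0.96 on its 1 probe set. Tmsb10 had 8405 in LM8 and 10606 in Dunn, with 5 probe sets from -1.09 to -0.34. Both thymosin genes were lower in LM8 on every probe set, though neither reached 2-fold on its brightest and that of Tmsb10 had a log2 ratio of 0.010 with quantile normalization.

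Contractility genes lay within 2-fold. Myh9, the heavy chain of non-muscle myosin IIA, had 1396 in LM8 and 1992 in Dunn, and all 5 probe sets were lower in LM8, from -0.87 to -0.33. Tpm4, a tropomyosin gene, had 1366 in LM8 and 941 in Dunn. Arhgef2 encodes GEF-H1, a guanine nucleotide exchange factor that is held on microtubules, and had 435 in LM8 and 362 in Dunn, with 3 probe sets from 0.13 to 0.34. Myh10, the heavy chain of myosin IIB, was below both floors on 2 probe sets.

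**Figure D3:**
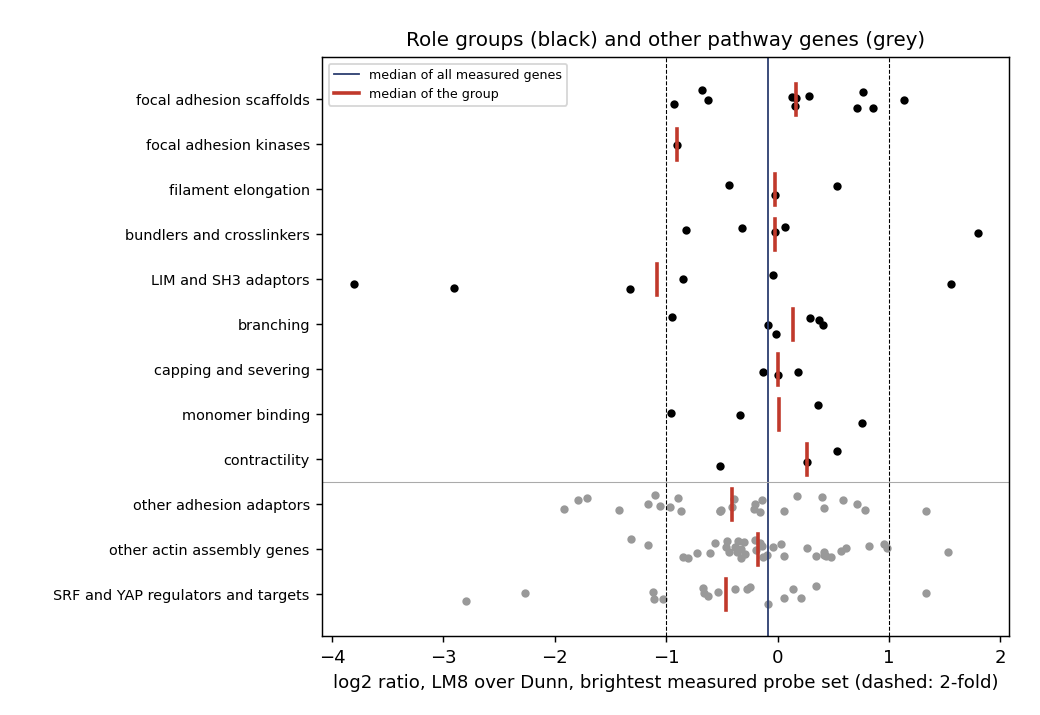
Log2 ratio of LM8 over Dunn for each measured gene of the role groups (black) and of 3 lists of other genes of the pathway (grey), brightest measured probe set, 1 array per line; points are spread vertically for legibility. Red bars are group medians, the blue line is the median of all measured genes, -0.084, and dashed lines mark 2-fold. The LIM and SH3 adaptors span the widest range. Capping and severing genes span the narrowest among groups with more than 1 measured gene, but the value of Capg is a bound set by the Dunn floor.

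Set side by side, the role groups had median log2 ratios of 0.165 for scaffolds, -0.023 for elongation, -0.022 for bundlers, 0.138 for branching, 0.001 for capping and severing, 0.014 for monomer binding and 0.265 for contractility, and -1.08 for the LIM and SH3 adaptors. Apart from the adaptors, and from Src as the 1 measured kinase, these medians differ from each other by less than the median SD between probe sets of the listed genes. Groups of 3 to 11 genes without replicate arrays give no test of such a difference.

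Other genes of the pathway were listed by function, with earlier results of these data known. The shares in this and the following paragraphs are therefore descriptions only. Of 27 measured further adhesion adaptors, 7 were at least 2-fold lower in LM8 (25.9%) and 1 at least 2-fold higher (3.70%), against 8.84% and 6.51% of all measured genes. Their median log2 ratio was -0.407, against -0.084 for all measured genes. Pdlim2, a relative of Pdlim1, had 41.4 in LM8 and 156 in Dunn. Pdlim4, another relative, went the other way and was the 1 higher gene, with 70.0 in LM8 and 27.8 in Dunn. Parvb, for β-parvin, had 10.4 in LM8, under the floor, and 65.5 in Dunn, and its other measured probe set had a log2 ratio of -0.25. The LIM-only genes Fhl1 and Fhl2 had log2 ratios of -1.71 and -1.42. Fhl2 was well above the floor in both lines, with 530 in LM8 and 1421 in Dunn.

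Of 38 measured further genes of actin assembly, 1 was higher by at least 2-fold in LM8 (2.63%) and 2 lower (5.26%), against 6.51% and 8.84% of all measured genes. Their median log2 ratio was -0.175, against -0.084. Tpm2, a tropomyosin gene, had 549 in LM8 and 190 in Dunn and was 2-fold higher on all 4 probe sets, from 1.21 to 1.89. Marcks, whose product crosslinks filaments under the membrane, had 1997 in LM8 and 4457 in Dunn and was 2-fold lower on all 7 probe sets, from -1.49 to -1.11. Ssh2, a phosphatase gene that activates cofilin, had 201 in LM8 and 500.5 in Dunn. The actin genes themselves were nearly level, with log2 ratios of -0.14 for Actb and -0.19 for Actg1 that became 0.192 and 0.056 with quantile normalization and 0.105 and 0.055 with scaling on the hybridisation controls.

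Among 18 measured genes that regulate or report SRF and YAP, which respond to the state of the actin cytoskeleton, 5 were at least 2-fold lower in LM8 (27.8%) and 1 at least 2-fold higher (5.56%), against 8.84% and 6.51% of all measured genes. Their median log2 ratio was -0.459, against -0.084. The list mixes targets with activators and inhibitors, so its count and median do not measure the output of SRF or YAP. Egr1, an immediate early gene, had 34.5 in LM8 and 239 in Dunn, and the matricellular gene Ccn2 had 222 in LM8 and 1069 in Dunn. Ccn1, of the same list, had 639 in LM8 and 614 in Dunn, with 4 probe sets from 0.06 to 0.63. Lats2, a kinase gene that restrains YAP, had 57.9 in LM8 and 125 in Dunn, with 4 probe sets from -1.14 to -0.05. Ankrd1 went the other way, with 75.3 in LM8 and 29.9 in Dunn, although a second probe set gave a log2 ratio of 0.15. Srf itself had 84.4 in LM8 and 134 in Dunn on its brighter probe set and a log2 ratio of 1.38 on the other, so its direction is not settled.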

How the data were processed

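RNA of 2 mouse osteosarcoma lines was measured on 1 array each. The deposited values are linear intensities that the authors computed with MAS5, which the submitters' processing notes name; its version and settings are not given in the sources used here. The 64 control probe sets were left out and the other 45037 scaled to a common 2% trimmed mean, which multiplied both arrays by 1.00. Signals under an array's median were set to it, and a ratio with 1 array there is a bound. Symbols came from the platform annotation, updated through gene identifiers (99.4% matched) to GRCm38.p6 names. Of the 45037 probe sets, 34945 had 1 symbol, 932 several and 9160 none.

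Genes were counted as higher or lower from 2-fold on their brightest measured probe set, and no test was made. All listed genes 2-fold apart or with probe sets 1 or more apart in log2 ratio, paralogues and the extremes of each role group are named, with up to 4 genes of each further list. The listed genes, lists and rules were chosen with earlier results of these data known. Other genes named from the lists, such as Actb, Actg1, Srf, Pdlim4 and Ccn1, were picked after seeing the values. Scalings, floors, gene summaries and call rules were varied. The steps were tested on simulated arrays with changes larger than 2-fold in genes well above the floor. That test says nothing about calls near 2-fold, dim genes or probe sets that disagree. A further list of related genes is not reported here. Python 3.11.15, numpy 2.4.6, pandas 2.3.3, statsmodels 0.14.6 and matplotlib 3.10.9 were used.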

Additional observations from a re-analysis of the deposited data

How the results depend on the processing

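The call of Fscn1 as higher and those of Pdlim1 and Sorbs2 as lower held under the other scalings, floors and gene summaries, with log2 ratios from 1.06 to 2.04, from -2.94 to -1.72 and from -3.81 to -1.92. Sorbs3 stayed 2-fold lower wherever it was measured and was lost when the floor was raised to the 75th percentile. Vcl passed 2-fold under every scaling and floor but had a log2 ratio of 0.94 with probe sets averaged or at their median. Pdlim7 had a log2 ratio of -0.001, reversed, at the median of its probe sets. Accordingly the count of higher genes was 1 with probe sets averaged, at their median, under a 3-fold rule, or where all probe sets had to be 2-fold apart, and 6 when the arrays were scaled on 12 hybridisation controls (mean log2 ratio -0.24). That scaling moved the median of all genes from -0.084 to 0.160, with 10.5% of all genes higher and 5.40% lower; centring on array medians moved it to 0.068, with 8.66% and 6.55%, and the listed genes had medians of 0.238 and 0.145 in these scalings. The count of lower genes was 4 with quantile normalization and 4 with neither floor nor filter. It was 2 under the raised floor, under a 3-fold rule, or where all probe sets had to be 2-fold apart. With a signal of at least 100 required on both arrays, the count of lower genes was 1.

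For the LIM and SH3 adaptors the median was -0.576 under the raised floor and -1.88 with neither floor nor filter. That of contractility genes was -0.124 with neither floor nor filter and -0.132 with a pseudocount, both of which add the dim gene Myh10. The median of elongation genes was 0.309 with probe sets averaged or at their median, and Src had -0.346 in both and 0.210 on probe sets of the plain _at type only. The causes of the other shifts were not tested. Of 453 values of single genes under these alternatives, 420 moved by less than 0.305, the typical SD among a gene's probe sets. Another 32 moved by more, and 1 changed sign after a 2-fold call. Many of the values could hardly move. Centring on medians or scaling on controls shifts the genes alike by less than 0.305, and other floors leave bright genes unchanged. Averaging leaves genes with 1 measured probe set unchanged. The share of 420 is therefore no measure of robustness. No paired analysis was possible because each line has 1 array.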

Other observations

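Arpc1b encodes a subunit of the Arp2/3 complex. Its 2 probe sets on the array are annotated to both Arpc1b and Gm5637, so their signal cannot be assigned to either. The brighter one had 1188 in LM8 and 513 in Dunn, a log2 ratio of 1.21, and the dimmer one had signals under both floors, 16.7 in LM8 and 4.69 in Dunn. The brighter ratio lies above those of the measured Arp2/3 subunit genes Actr3, Arpc2, Arpc5, Arpc1a, Arpc4 and Arpc5l, of which the highest was 0.37 for Actr3.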
